A study of Mus musculus with 5 samples.

Results

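The mRNAs of the cytosolic ribosomal proteins were followed in 5 direct RNA sequencing libraries of mouse embryonic stem cells (mESCs). Members were the 85 protein-coding genes of the GENCODE M21 annotation of mm10 whose symbol starts with Rpl or Rps followed by a digit, or is Rplp0, Rplp1, Rplp2 or Rpsa, without the Rps6k kinases, Rps19bp1 and symbols ending in -ps. Of these, 52 code for proteins of the large subunit or their paralogues and 33 for proteins of the small subunit. In the METTL3 inhibition dataset 32 of the 85 members held deposited positions, among 2607 protein-coding genes that did, and in the Mettl5 dataset 14 of 85 did.

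Ribosomal proteins assemble with ribosomal RNA into the subunits that translate mRNA, and their mRNAs are among the most abundant of growing cells. They are short, have many exons of small size, and begin with a terminal oligopyrimidine tract through which their translation responds to growth signals. N6-methyladenosine (m6A) is placed on mRNA mainly by METTL3 with METTL14 in DRACH motifs (D is A, G or U, R is A or G, H is A, C or U), mostly in long internal exons, around stop codons and in 3′ UTRs, and less often close to exon junctions. METTL5 is known as a methyltransferase of the RNA of the small ribosomal subunit.

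The DMSO and STM2457 libraries came from E14 mESCs that carry the reporters 2C::3xtbGFP-PEST and Zscan4::mCherry-PEST, a Dox::APOBEC1-YTH-HA-IRES-tdiRFP transgene that was not induced, and a homozygous METTL3-FKBP12 F36V degron that was not induced either. One culture was kept for 48 h in 30 μM STM2457, which blocks the catalytic activity of METTL3, and the second in 0.025% v/v DMSO. The Mettl5 dataset held 1 WT library and 1 library from each of 2 Mettl5-KO clones made in an earlier study, without treatment. Each condition was thus 1 library, except that the knockout had 2 clones, and tests compare libraries rather than conditions.

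The deposited positions were the same in all libraries of a dataset, with at least 25 valid calls each. Valid calls summed to 71574467 for DMSO, 54051900 for STM2457, 22025887 for WT, 17897440 for clone #1 and 19532075 for clone #2. Of the 11 mESC markers looked up, 10 had positions in the METTL3 inhibition dataset and 8 in the Mettl5 dataset, and of 12 markers of other cells 0 and 1 had, the latter being Krt18. No position of Mettl5 itself reached the coverage minimum, so the knockout could not be checked.

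The gene level used here is the share of m6A calls among all valid calls on the exons of a gene, DRACH or not, in percent. A site is an adenosine with more than 25 valid calls in every library of a dataset and a methylation level that reached 25% in any of them. Ranges in parentheses are 95% Clopper-Pearson intervals, which hold counting error alone. Fisher's exact test, two-sided, was run on the m6A and other valid calls, with Benjamini-Hochberg adjustment over all protein-coding genes with at least 20 positions or over all exonic sites. Calls on one molecule are not independent, so gene p-values are too small where several adenosines of a read change together.

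Member mRNAs held 21 sites in the METTL3 inhibition dataset, on 9 of the 32 genes. Of these, 17 were in DRACH and 18 in a 3′ UTR. The sequences of the 9 sites with the highest methylation levels show the motif that carried the signal. They are given 5′ to 3′ from the annotated transcripts, with the DRACH motif in capitals and the methylated adenosine at its centre.

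Rpl10l, transcript position 692: attcctgaGGACTttgctggc
Rpl10l, transcript position 757: ccgtttatTGACTttagaatg
Rpl7l1, transcript position 1086: cccctccaAGACTgttagagc
Rpl36al, transcript position 158: aacccgaaGGACTttctgtaa
Rpl13a, transcript position 671: cccaataaAGACTgtttgcct
Rpl15, transcript position 779: acaatttaGGACAgtcatttc
Rpl7l1, transcript position 1839: gcaaccttGGACAaacagcat
Rps3, transcript position 894: taaaataaAGACAtttaataa
Rpl36al, transcript position 406: agcattttGAACTgggaggcg

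The highest levels were on paralogues of ribosomal protein genes. Rpl10l, an intronless paralogue of Rpl10 best known from the testis, had 150 m6A calls of 152 valid calls at its first site (mm10 chromosome 12, position 66283710, minus strand, 3′ UTR) in DMSO, which is 98.7% (95.3 to 99.8%), and 53 of 104 in STM2457, which is 51% (41 to 60.9%). At its second site (position 66283645, 3′ UTR) 132 of 147 DMSO calls, 89.8%, and 29 of 98 STM2457 calls, 29.6%, were m6A. Both decreases passed the test (adjusted p = 8.5e-21 and 1.28e-21, Fisher's exact test). These were the only DRACH sites of members that stayed at 25% or more in STM2457.

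Rpl36al, a paralogue of Rpl36a with 2 exons, carried both of its sites in the coding sequence of the last exon. The first (chromosome 12, position 69183109, minus strand) had 307 of 391 m6A calls in DMSO, 78.5% (74.1 to 82.5%), and 31 of 419 in STM2457, 7.4% (5.08 to 10.3%), a log2 ratio of -3.41 (adjusted p = 1e-101, Fisher's exact test). The second (position 69182861) had 223 of 414, 53.9%, in DMSO and 31 of 504, 6.15%, in STM2457. Both sites also lie on an exon of the overlapping gene Gm49383. At 11 adenosines where Rpl36al differs from Rpl36a, 0.474% of 4431 DMSO reads had another base, and at 15 adenosines where Rpl10l differs from Rpl10, 0.649% of 2310 reads did.

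Rpl7l1, a paralogue of Rpl7, had all of its 298 positions in the last exon and held 5 sites, all in the 3′ UTR. At position 46775427 (chromosome 17, minus strand) 43 of 49 calls were m6A in DMSO, 87.8%, and 6 of 32 in STM2457, 18.8%. At position 46774674 the counts were 36 of 61, 59%, and 1 of 32, 3.12%. The other 3 Rpl7l1 sites were at 25 to 46.7% in DMSO and at 3.57 to 7.14% in STM2457, and each of the 5 passed the test.

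The other 12 sites lay on core ribosomal proteins. Rpl13a, a large subunit protein that also acts in a translational control complex, had 777 of 1121 m6A calls at position 45125934 (chromosome 7, minus strand, 3′ UTR) in DMSO, 69.3% (66.5 to 72%), and 109 of 801 in STM2457, 13.6% (11.3 to 16.2%). This was the member site with the most reads (adjusted p = 1.53e-136, Fisher's exact test), and it also lies on an exon of the overlapping gene Gm45713. Rpl15, a large subunit protein, had 39 of 65, 60%, and 11 of 85, 12.9%, at position 18268966 of chromosome 14, and 17 of 66, 25.8%, and 5 of 80, 6.25%, at position 18268976, with both sites in the 3′ UTR on the minus strand and past the test.

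Rps3, a small subunit protein at the mRNA entry channel, had 44 of 80 m6A calls, 55%, in DMSO and 11 of 106, 10.4%, in STM2457 at position 99478910 (chromosome 7, minus strand, 3′ UTR). A second Rps3 site, at position 99478065, went from 14 of 45, 31.1%, to 2 of 49, 4.08%, and both passed the test. The Rps3 site at position 99478748 had 14 of 54, 25.9%, and 5 of 45, 11.1%, and did not pass (adjusted p = 0.0815, Fisher's exact test). Rpl41, which codes for a very short basic peptide, had 25 of 52, 48.1%, and 4 of 69, 5.8%, at position 128548187 (chromosome 10, minus strand), and 20 of 51, 39.2%, and 1 of 66, 1.52%, at position 128548315, both in the 3′ UTR and both past the test.

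**Figure D1:**
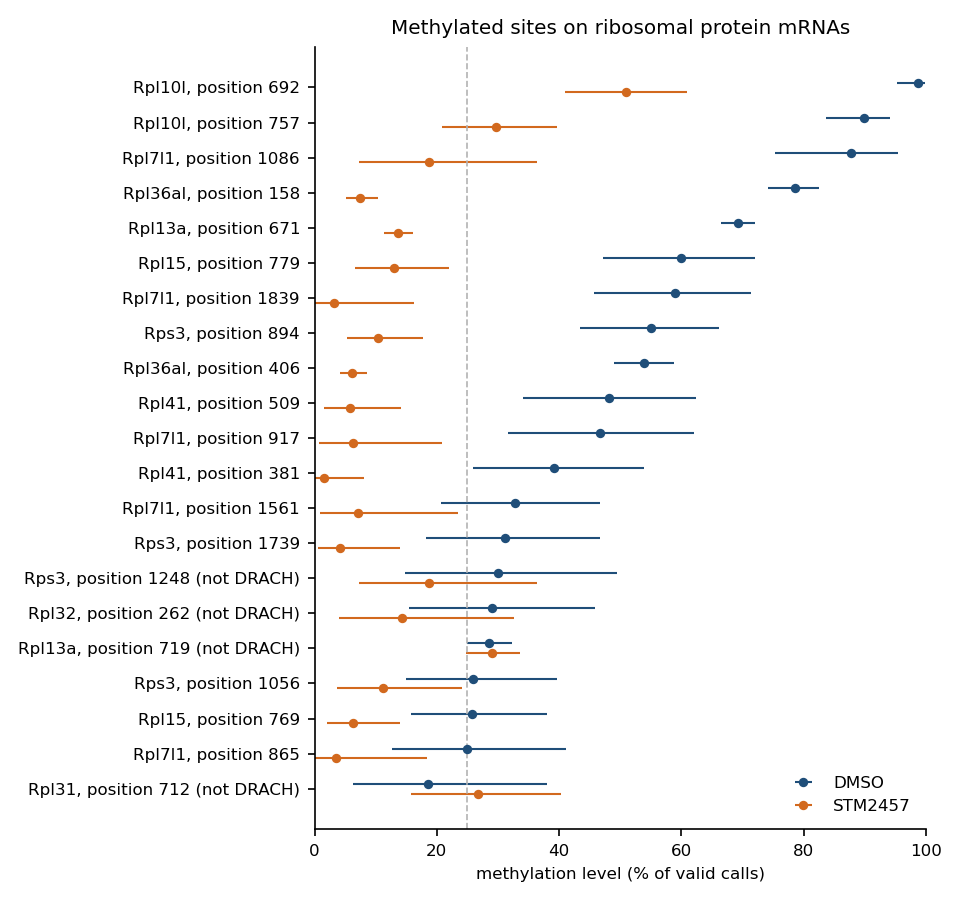
Methylation level in percent of valid calls (horizontal axis) of the 21 sites on ribosomal protein mRNAs in DMSO (blue) and STM2457 (orange), with exact binomial 95% intervals and the 25% threshold as a dashed line; names give the position in the transcript. The intervals of both libraries lie apart at the sites with the highest DMSO levels, and overlap at all 4 sites outside DRACH.

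Of the 21 sites, 16 were lower in STM2457 by the test, 0 were higher and 5 did not pass. Of all 6159 exonic sites of the dataset, 91.6% were lower by the same rule. The median relative decrease was 78.6% over the member sites and 79.9% over all sites. Of the 21 member sites, 20 reached the 25% threshold in DMSO and 4 in STM2457. The choice of sites by these same levels thus favoured a decrease, in the counts and in the medians. Member positions reached the site threshold less often than others, with 0.461% of 4554 member positions against 1.42% of 444193 positions of other protein-coding genes. The median DMSO level of member sites was 46.7% and that of all sites 52%.

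At the 4 sites outside DRACH 34.5 to 50% of the calls had failed the confidence filter in DMSO. At the Rpl13a adenosine at position 45125886, in the sequence gccgccaaCTAGGgaagtggg with the central 5 bases in capitals, 169 of 593 valid calls were m6A in DMSO, 28.5%, and 126 of 434 in STM2457, 29%, while 524 further DMSO calls had failed. The Rps3 adenosine at position 99478556 had 9 of 30 and 6 of 32, with 30 failed calls in DMSO. The Rpl32 adenosine at position 115808087 had 11 of 38 and 4 of 28, and lies on the snoRNA Snora7a in an annotated 5′ UTR. The Rpl31 adenosine at position 39371574 of chromosome 1 had 5 of 27 in DMSO, 18.5%, and 15 of 56 in STM2457, 26.8%. None of the 4 passed the test, and the part of the failed calls in these levels was not tested.

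At 3 member adenosines the letters AATAAA, the common polyadenylation signal, directly preceded GAC with the called adenosine at its centre. The first 2 are sites listed above, on Rpl13a and Rps3, and lie 376 and 1014 bases from the annotated transcript end. The last, on Rps15, was below 25%. They are shown because the same letters occurred on 3 members, with AATAAAGAC in capitals.

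Rpl13a, position 45125934: cccAATAAAGACtgtttgcct
Rps3, position 99478910: taaAATAAAGACatttaataa
Rps15, position 80294096: gccAATAAAGACtggttttgg

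Rps15 codes for a small subunit protein, and its adenosine (chromosome 10, plus strand), 18 bases from the transcript end, had 164 of 863 m6A calls in DMSO, 19% (16.4 to 21.8%), and 10 of 807 in STM2457, 1.24% (0.596 to 2.27%). These letters, read on the transcript strand, were at 3 of 323 member DRACH positions, 0.929%, and at 34 of 39834 DRACH positions of other protein-coding genes, 0.0854%. At the latter the DMSO level ranged from 0 to 68.8% with a median of 6.32%, and 8 of 34 were at 25% or more. The match describes the letters around these adenosines and was noticed after the levels were seen.

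The gene level was low for the members as a group. The median over the 32 members was 1.06% in DMSO, with a range of 0.431 to 2.26%, against 1.54% over all 2490 protein-coding genes with at least 20 positions. Over DRACH positions alone the median member level was 1.66% in DMSO, against 7.98% over all genes, and outside DRACH it was 0.874% against 0.897%. The mitochondrial ribosomal protein genes, 60 in number, had a median gene level of 2.03% and a DRACH median of 13.6%.

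The members with the highest DMSO gene levels were Rpl10l at 2.26%, Rpl41 at 2.14%, Rpl7l1 at 1.95%, Rpl36al at 1.81%, Rpl13a at 1.58%, Rps9 at 1.45%, Rpl28 at 1.34% and Rps3 at 1.33%. The intervals of Rpl10l (2.11 to 2.42%) and Rpl41 (1.68 to 2.68%) overlapped. Rps9 is a small subunit protein near the mRNA entry channel. Its DRACH position chosen as the highest in DMSO had 10 of 58 calls, 17.2%, in DMSO and 2 of 148, 1.35%, in STM2457. Rpl28, a large subunit protein, had 1 m6A call of 76 at its highest DRACH position, so that its gene level came from calls outside DRACH, at 1.39%. The lowest members were Rpl14 at 0.645%, Rps18 at 0.638% and Rpl10a at 0.431% (0.197 to 0.817%), whose intervals overlapped.

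Of the 31 members with a DRACH position, 7 had one at 25% or more in DMSO and 17 one at 10% or more, while in 12 the highest was below 5%. Such counts per gene depend on how many DRACH positions are covered, and were not set against other genes. By position, 5.26% of 323 member DRACH positions were at 25% or more in DMSO and 12.4% at 10% or more. For 39834 DRACH positions of other protein-coding genes the shares were 14.6% and 23.8%. The named members below are those with a DRACH position. Among them Rps15, Rpl22, Rps9, Rps2, Rpl4, Rpl23, Rpl12 and Rpl27a had a highest DRACH level of 10.5 to 19% in DMSO, and at the same positions 0.694 to 4.55% in STM2457. Rpl22, a large subunit protein whose loss is tolerated by cells, had 13 of 72 and 1 of 144 there. Each position was chosen as the highest of its gene in DMSO, in some genes on few calls. A lower value in STM2457 was thus favoured by the choice. In 4 members no DRACH position had an m6A call in DMSO. These were Rpsa, the laminin receptor and small subunit protein, with 4 DRACH positions, Rps21 and Rpl14 with 2 each and Rps27l with 1.

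After STM2457 the gene level was lower in 13 of 32 members by the test and higher in 0, while 19 did not pass. Over all 2490 genes 73% were lower and 0.161% higher, and of the 60 mitochondrial ribosomal protein genes 48 were lower. Members had a median of 7492.5 valid calls in DMSO and 9487.5 in STM2457, against 10441 and 8770 over all genes, on a median of 108.5 and 147.5 positions. Where the gene test was run on DRACH positions alone, 17 of 31 members were lower, against 79.8% of all genes.

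The median relative decrease was 25% over the members and 45.4% over all genes. Rpl7l1 went from 298 of 15316 calls, 1.95%, to 0.65%, a relative decrease of 66.6% (adjusted p = 2.43e-17, Fisher's exact test). Rpl36al went from 1.81 to 0.69% (adjusted p = 1.63e-69, Fisher's exact test), Rpl41 from 2.14 to 1.04% (adjusted p = 0.000265), Rpl10l from 2.26 to 1.21% and Rpl15 from 1.19 to 0.692%. Rpl13a went from 1.58 to 0.938%, Rps3 from 1.33 to 0.914%, Rps15 from 1.26 to 0.872%, Rpl4 from 1.07 to 0.703% and Rpl31 from 0.928 to 0.535%. Rpl8, the member with the most calls, passed with a small decrease from 0.798 to 0.711% (adjusted p = 2.2e-06, Fisher's exact test).

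The smallest relative decreases among members above the median DMSO level included 2.23% for Rps27l, a paralogue of Rps27 known as a p53 target, 11.6% for Rpl28, 19.6% for Rpl36 and 22.3% for Rps9. None of these 4 passed the test. Their intervals in both libraries overlapped, as the plot of gene levels shows. Rpl14 and Rpl10a, at 0.795% and 0.592% in STM2457, were the only members with a value above that in DMSO and did not pass either.

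**Figure D2:**
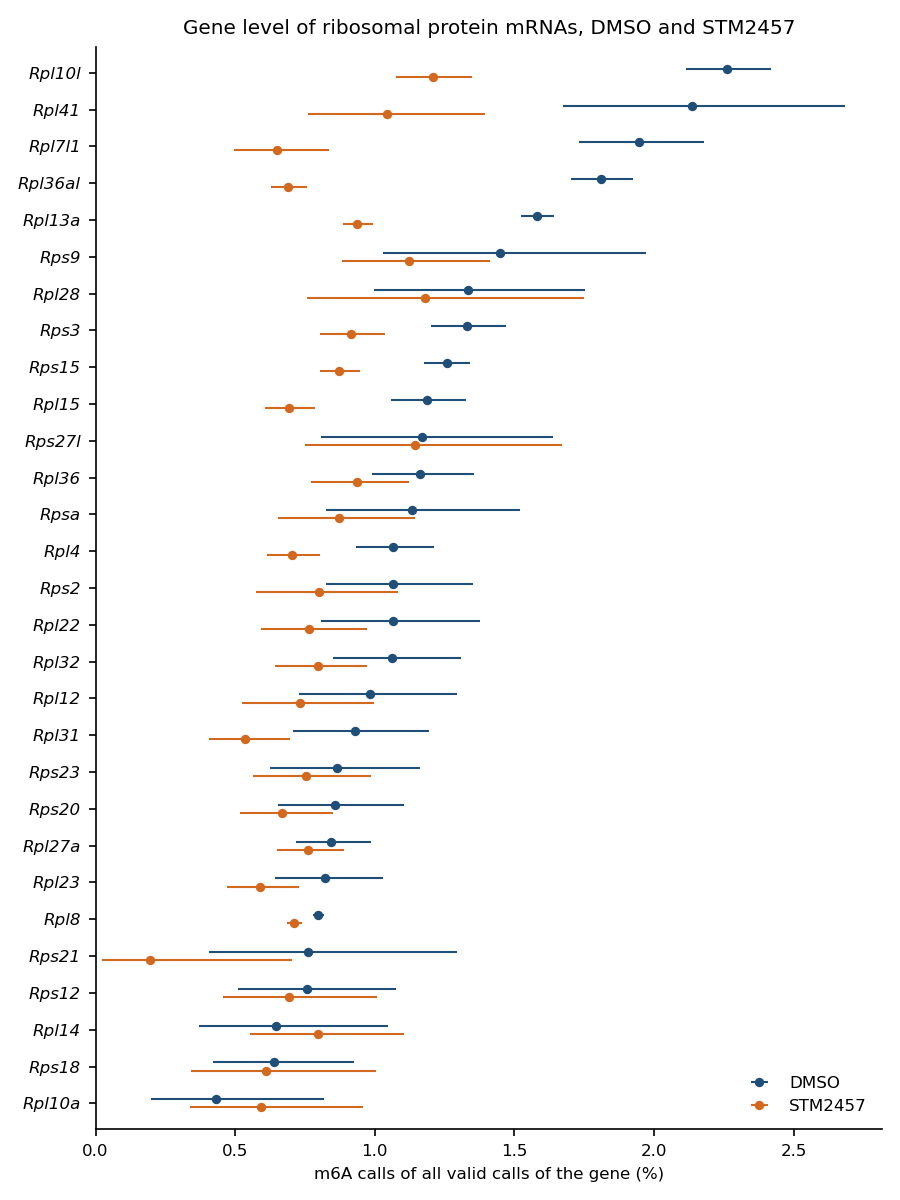
Gene level (m6A calls in percent of all valid calls of the gene, horizontal axis) of 29 of the 32 ribosomal protein genes in DMSO (blue) and STM2457 (orange), with exact binomial 95% intervals, ordered by the DMSO level. Rpl10l, Rpl41, Rpl7l1, Rpl36al and Rpl13a stand above 1.5% in DMSO, and all 29 genes shown are at 1.21% or less in STM2457.

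The decrease was larger in DRACH than outside it. Summed over the members, DRACH positions were at 2.54% in DMSO and 0.648% in STM2457, and positions outside DRACH at 0.903% and 0.816%. The corresponding DRACH values of other protein-coding genes were 8.11% and 2.09%. Of all m6A calls on members 20.4% lay in DRACH in DMSO and 6.51% in STM2457, when 8.36% and 8.07% of the valid calls did. Outside DRACH the test found 5 of 32 members lower, against 13.7% of all genes. How many of the calls outside DRACH were errors was not tested, as no library without m6A was used.

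Sums over members were weighted by few genes, and Rpl8 alone held 39.2% of the member calls in DMSO. Leaving it out, DRACH positions were at 4.52% and 0.921%. The sums therefore describe calls and the medians above describe genes.

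DRACH levels differed by place in the transcript. In coding exons of up to 200 bases that were not the last, 76 member DRACH positions in 18 genes were at 0.771% (0.696 to 0.852%) in DMSO, and 7052 positions of other genes were at 0.711% (0.695 to 0.726%). In the coding sequence of the last exon the level was 6.46% (6.03 to 6.91%) over 49 member positions and 9.12% for other genes. The unweighted mean of the position levels there was 4.44% for members and 13.8% for other genes, and the 2 Rpl36al sites held 307 and 223 of the 784 m6A calls of members. In 3′ UTRs it was 9.85% (9.47 to 10.2%) over 164 member positions and 12.5% for other genes, with unweighted means of 7.9% and 14.1%. In longer earlier coding exons 17 member positions in 4 genes were at 0.438% and other genes at 4.09%. Of these 17 positions, 5 were on Rpl8, and without these the level was 0.652%.

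**Figure D3:**
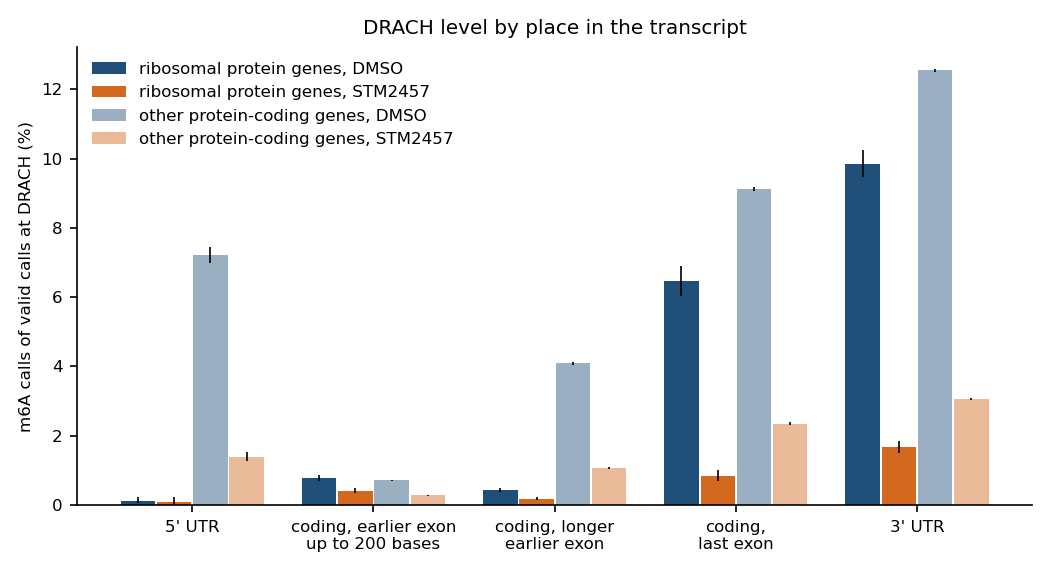
Share of m6A calls among valid calls at DRACH positions, in percent (vertical axis), by place in the transcript for ribosomal protein genes (full colour) and other protein-coding genes (pale) in DMSO (blue) and STM2457 (orange), with exact binomial 95% intervals. The level of ribosomal protein genes is highest in the 3′ UTR, at 9.85% in DMSO, and below 1% in the 5′ UTR and in coding exons before the last.

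Other mRNAs of the translation machinery that share the terminal oligopyrimidine tract were looked up by a list of 19 genes, of which 11 had positions in the METTL3 inhibition dataset. Of these 7 were lower after STM2457, 1 was higher and 3 did not pass, with a median DMSO gene level of 0.989%. Eef1a1, the factor that brings aminoacyl-tRNA to the ribosome, went from 1.18 to 0.737%, and Eef2, the translocase, from 1.36 to 0.932%. Rack1, a scaffold protein of the small subunit, went from 0.989 to 0.891% (adjusted p = 0.00509, Fisher's exact test). Npm1, a nucleolar chaperone, was at 0% and 0.525% (adjusted p = 0.0354, Fisher's exact test).

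In the Mettl5 dataset 12 members had at least 20 positions, and in WT their gene level ranged from 0.607 to 2.04% with a median of 1.33%, against 1.53% over 939 genes. The highest in WT included Rpl36al, Rpl13a, Rps15, Rps3, Rpl15, Rpl8 and Rpl28, and the lowest Rpl4, Rpl27a and Rpl23. Rpl22 and Rpl32 held 1 and 10 positions, with 0 and 1 m6A calls in WT, and were not tested.

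No member changed in both Mettl5-KO clones. By Fisher's exact test with adjustment 0 of 12 members were lower and 0 higher in both clones, while 0.106% of all genes were lower and 0% higher in both, and 0.639% differed between the 2 clones. At an unadjusted p below 0.05, 1 of 12 members differed from WT in clone #1 and 2 in clone #2, and of all 939 genes 76 and 107 did. Both comparisons share the WT library. Irrespective of the test, the level was below WT in both clones for 8 of 12 members and above in both for 1, Rpl36al, while of all 939 genes 309 were below and 340 above in both.

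Rpl36al had gene levels of 2.04% in WT, 2.07% in clone #1 and 2.04% in clone #2, and Rpl13a 2%, 1.81% and 1.83%. Rps15 had 1.79%, 1.55% and 1.78%, and Rps3 1.74%, 1.53% and 1.84%. The intervals of the 3 libraries overlapped in each of these genes. Rpl8 had 1.31%, 1.27% and 1.16% (adjusted p = 0.987 and 0.0749, Fisher's exact test). The Rpl8 intervals of WT (1.24 to 1.37%) and clone #2 (1.11 to 1.22%) lay apart. Rpl15 had 1.34%, 1.31% and 1.15%, Rpl28 1.27%, 0.926% and 0.935%, and Rpl23, a large subunit protein known to bind Mdm2, 0.607%, 0.547% and 0.578%.

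Over the 122 member DRACH positions the unweighted mean level was 4.06% for WT, 4.02% for clone #1 and 4.08% for clone #2, and for other genes it was 6.83%, 7.28% and 7.35%. Summed over calls, which weights positions by their coverage, the members were at 2.47%, 2.12% and 1.52%. The sums for other genes were 5.4%, 5.68% and 5.62% and did not decline in this way. The unweighted mean of the members thus did not show the decline of their sums. Without Rpl8 the unweighted mean was 4.55%, 4.6% and 4.66%. The sums without Rpl8 still declined, with 4.09%, 3.54% and 2.82%. The DRACH level of Rpl8 was 0.818%, 0.604% and 0.465%, while that of Rpl36al was 20.6%, 21.1% and 24.2%. These Rpl36al levels came from 712, 513 and 211 valid calls, so that this gene weighed less in the sums of the clones. Its part in the decline was not tested. With the test on DRACH positions alone, 0 members changed in both clones. Of the 9 other translation mRNAs with positions here, Eef1a1 was lower in both clones, with 1.54%, 1.48% and 1.29%.

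**Figure D4:**
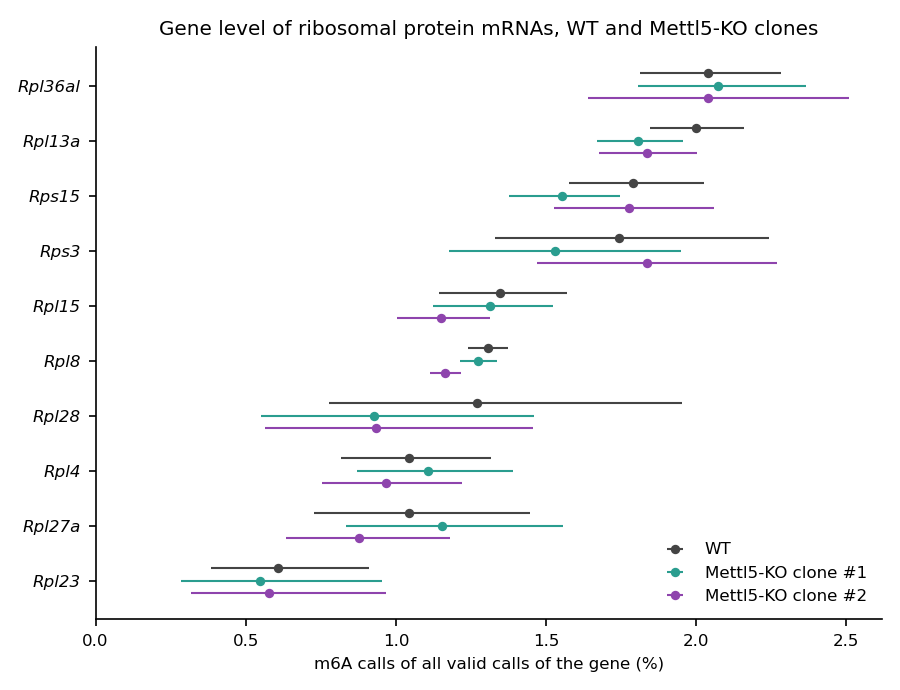
Gene level (m6A calls in percent of all valid calls of the gene, horizontal axis) of 10 of the 12 ribosomal protein genes with at least 20 positions in WT (grey), Mettl5-KO clone #1 (green) and clone #2 (purple), with exact binomial 95% intervals. The 3 libraries lie close together for Rpl23, at 0.547 to 0.607%, and for Rpl36al, at 2.04 to 2.07%. They lie further apart for Rpl28, at 0.926 to 1.27%, and the Rpl8 intervals of WT and clone #2 do not overlap.

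Member sites numbered 7 in the Mettl5 dataset, of which 6 were in DRACH. The first Rpl36al site had 75 of 114 m6A calls, 65.8%, in WT, 58 of 81, 71.6%, in clone #1 and 20 of 27, 74.1%, in clone #2. The Rpl13a site at position 45125934 had 117 of 202, 57.9%, then 145 of 212, 68.4%, and 107 of 172, 62.2%. The second Rpl36al site was at 48.3%, 38% and 56.4%, the Rpl15 sites at 36.1%, 51.4% and 40% and at 25.7%, 12.9% and 14.5%, and the Rps3 site at 26.9%, 48.3% and 43.4%, on 26, 29 and 53 reads. The Rps15 adenosine at position 80293753, in GCACC and so outside DRACH, had 27 of 91, 29.7%, 21 of 122, 17.2%, and 20 of 82, 24.4%. None of the 7 passed the test in either clone, and of all 1847 sites 0.0541% changed in both.

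For 6 DRACH sites a level was at hand in both datasets. In DMSO and WT the first Rpl36al site was at 78.5% and 65.8%, the Rpl13a site at 69.3% and 57.9%, the first Rpl15 site at 60% and 36.1%, the Rps3 site at 55% and 26.9%, the second Rpl36al site at 53.9% and 48.3% and the second Rpl15 site at 25.8% and 25.7%. The datasets differ in cell line, in the DMSO that the WT cells did not receive and in having been made separately, which cannot be told apart here.

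Coverage gives the reads assigned to each member. Mean valid calls per position, divided by the valid calls of the library, were higher in STM2457 than in DMSO for 23 of 32 members. Of all 2490 genes, 1491 were higher. The median member ratio was 1.37, with a range of 0.705 to 3.19, against a median of 1.08 over all genes. Relative to that median the member ratio was 1.27. Without positions on snoRNAs, which leaves 31 members, the median member ratio was 1.51. A ratio of 1.5 or more was seen in 14 of 32 members, 43.8%, and in 13.6% of all genes, and a ratio of 1/1.5 or less in 0 members and 5.1% of all genes. With 1 library per condition these ratios have no test, and in bulk RNA fewer cells and less RNA per cell cannot be told apart.

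The highest ratios were those of Rps9 at 3.19, with mean coverages of 49.9 and 120 reads, Rpl14 at 2.35, with 32.2 and 57.2 reads, and Rpl31 at 2.18, with 41.3 and 67.9 reads. The lowest were Rpl28 at 0.705, Rpl8 at 0.73 and Rps18 at 0.771. Rpl36al was at 1.54 and Rpl13a at 0.956. In the list of other translation mRNAs the ratio was 1.25 for Eef1a1 and 0.802 for Eef2.

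Rpl8, a large subunit protein, was covered in steps along the exons. The median coverage in DMSO was 5965 to 6099.5 reads over exons 2 to 4, 187 over exon 5 and 338.5 over exon 6, the last. Sequencing in this method starts at the poly(A) tail. The scaled STM2457 ratio was 0.701 to 0.707 over exons 2 to 4 and 1.58 over exon 6, and so below 1 in the highly covered exons and above 1 in the last. In WT the same exons stood out, with 1037 to 1064 reads over Rpl8 exons 2 to 4 and 57 over exon 6.

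At the last base of Rpl8 exon 2 the DMSO library had 153 valid calls and 6412 deletions. At 4 positions of Rpl8 the transcript base was not A, and 97.8 to 99.1% of the reads there had another base than A. The part of read placement in these counts was not tested.

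**Figure D5:**
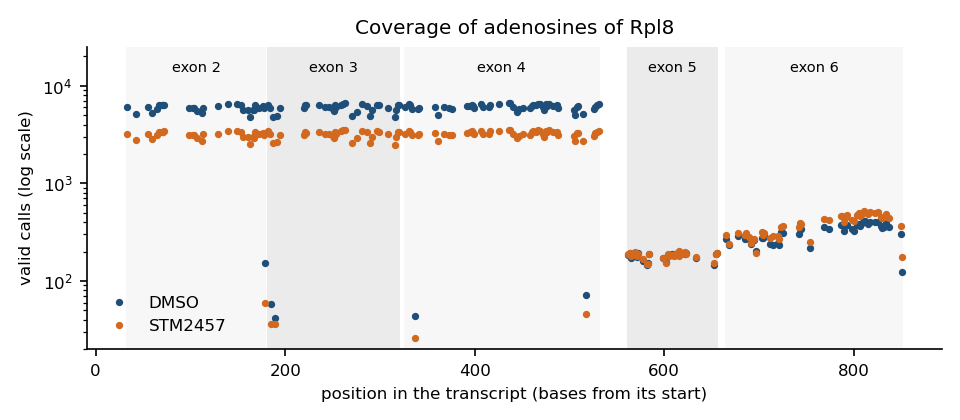
Valid calls per adenosine (vertical axis, log scale) against the position in the transcript in bases for Rpl8 in DMSO (blue) and STM2457 (orange), with exons shaded. Coverage drops at the start of exon 5, from medians of 5965 to 6099.5 calls to 187 in DMSO, and STM2457 lies below DMSO before that step and close to or above it after. The single low points in the highly covered exons are the positions with deletions or with another base than A.

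Over the last exon alone, without positions on snoRNAs, the median STM2457 ratio was 1.69 over 27 members and 1.11 over 2245 other genes, and over earlier exons it was 1.13 over 19 members and 0.975 over other genes. Of 15 members with both kinds of exon, 13 had the higher ratio in the last exon. Rps20, a small subunit protein, was at 2.28 in the last exon and 1.32 in the earlier ones, and Rpsa at 2.33 and 1.71.

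In the Mettl5-KO clones the median coverage ratio of the 12 members was 1.35 in clone #1 and 1.33 in clone #2, against 1.09 and 1.12 over all genes. No member had a ratio of 1.5 or more in both clones or of 1/1.5 or less in both, when 7.14% and 2.34% of all genes did. In clone #1 the highest ratios were 1.58 for Rps15, 1.52 for Rpl28 and 1.5 for Rps3, the last just under the threshold, and the lowest 0.712 for Rpl23, 0.884 for Rpl36al and 1.21 for Rpl4. In clone #2 the highest were 1.83 for Rpl15 and 1.65 for Rpl27a, and the lowest 0.339 for Rpl36al, 0.721 for Rpl23 and 0.802 for Rps15. Rpl36al had mean coverages of 114, 82 and 34.2 reads in WT, clone #1 and clone #2, so the clones differed from each other more than clone #1 did from WT.

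More calls lay on copies of the members than on the members. Among genes that are no members, 612 had a transcript aligning to a member at 95% identity or more over at least 50% of its coding length. Of these 15 had positions in the METTL3 inhibition dataset, and all but Wdr89 and Gm10260 are annotated as pseudogenes. They held 6813040 valid calls in DMSO, 9.52% of the library and 3.95 times the 1723677 calls on members. In STM2457 they held 4912771, also 3.95 times the member calls. In WT, clone #1 and clone #2 the factor was 4.22, 4.23 and 4.24.

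Of the 15 copies, 10 belong to members without a position of their own, among them Rps6, Rplp2, Rpl37, Rps15a, Rpl37a, Rpl22l1, Rpl30, Rps13 and Rpl17. A member without positions was therefore not shown to be low. Rps6-ps4 is identical to Rps6, the small subunit protein phosphorylated after growth signals, over the aligned part and held 981690 calls in DMSO. Gm11478, a copy of Rpl13a at 98% identity, held 914766 calls, against 179571 on Rpl13a. Rpl32l had a single adenosine with deposited calls at which Rpl32 has another base, and 98.9% of DMSO reads there had another base than A. At the single such adenosine of Gm7429, where Rpl30 has another base, 0.412% did. The other copies had no such adenosine with calls, so their reads could not be told from those of the member. The copies were at 0.821% m6A in DMSO and 0.743% in STM2457.

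Rplp0, Rplp1 and Rplp2, the proteins of the ribosomal stalk, had no position, and neither had Rps27a, which codes for ubiquitin fused to a small subunit protein, Rps27, Rpl39l, Rpl3l and Rpl22l1. On 7 members 167 positions lay on snoRNAs within annotated exons, among them all 30 positions of Rps12 on Snora33, 32 positions of Rpl32 on Snora7a and 27 of Rps2 on Snora64. Rps12 thus gives no value for its mRNA.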

How the data were processed

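Direct RNA sequencing libraries were prepared with the SQK-RNA004 kit. The authors used WarpDemuX for demultiplexing, dorado for basecalling, modification calls and alignment (mm10), and modkit pileup for the calls per position. The deposited counts are valid, m6A, canonical, other-modification, deletion, failed and other-base calls per position and strand, not normalized. The deposited percent is 100 times m6A calls over valid calls, so failed calls do not enter it. Only positions with at least 25 valid calls in every library of a dataset were held. The exons that bear a position were taken from GENCODE M21 protein-coding genes on the call strand. The transcript base was A at 99.8% of member positions in the METTL3 inhibition dataset, a check of build and strand.

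Calls were summed per gene and library. Fisher's exact tests, adjusted p below 0.05, were run with Python 3.11.15 and scipy 1.17.1, and tested on simulated data. A gene was called in the Mettl5-KO clones where both passed in the same direction. Coverage was the mean of valid calls per position over the valid calls of the library. Copies and paralogues were aligned with BLAST, with thresholds chosen after the data were seen, as was the snoRNA check and the split by last exon. Members and lists were chosen with earlier results of these data known.

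Named were the paralogues and stalk proteins, the 8 highest and 3 lowest levels, members with sites, the 5 smallest relative decreases above the median, members called in both clones and the 3 highest and lowest coverage ratios. Depth ranged from 17897440 to 71574467 valid calls. Shares carry exact binomial 95% intervals. Alternatives were DRACH or other positions alone, failed calls in the denominator, other minimums of coverage, positions and level, thinning to equal coverage, unweighted means, positions on a single gene, other scalings of coverage and each clone left out. Reads were not realigned, so their split between members and copies could not be repeated. Some members enter the counts and medians but are not reported by name here.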

Additional observations from a re-analysis of the deposited data

Results flagged for a closer look

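The values flagged outside the member genes were shares of valid calls, not m6A levels. Copies of member mRNAs carried 9.52% of the valid calls of the DMSO library and 5.71% of those of the WT library, more than the members themselves, which carried 2.41% and 1.35%.

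The column of other modifications, from a calling model that includes inosine and 2′-O-methyladenosine, was not part of the comparisons. At an Rpl8 adenosine in its coding sequence, in the letters TCATT, 96 of 220 valid DMSO calls, 43.6%, were of another modification. The position was chosen for its high share. A count of 0 in 220 calls would allow up to 1.36%, which is a limit for counting error alone. The error rate of these calls was not tested. In STM2457 78 of 248 calls there, 31.5%, were of another modification. The share in WT, clone #1 and clone #2 was 44.4%, 29.1% and 38.8%. Failed calls made up 37.9% of the calls there in DMSO. Of 4621 member adenosines in the METTL3 inhibition dataset 27 were at 10% or more and 3 at 25% or more. These counts were not set against other genes. Over all valid DMSO calls the share of other modifications was 0.535% on members and 0.453% on protein-coding genes. The 3 highest in each dataset all ended in ATT.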

How the results depend on the processing

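The count of members lower after STM2457 was 9 to 17 under the other settings, where 70.3 to 79.8% of all genes were lower, but 5 outside DRACH, where 13.7% were. The median DMSO level was 1.66% in DRACH alone. The median relative decrease was 81% in DRACH alone, over 27 members with a level above 0, and 10.1% outside DRACH. Outside DRACH the log2 ratio of Rpl41 was 0.40 and that of 7 called members lost the test, as did Rps3 at 100 calls or more. With failed calls counted or coverage thinned, the named sites kept direction and side of the threshold in the 32 comparisons in which they still met the site threshold and had a ratio, a thinned Rpl41 site having 0 m6A calls in STM2457. Member sites numbered 88, 9 and 5 at a level of 10%, a level of 50% and at 100 calls in the METTL3 inhibition dataset, and 42, 4 and 1 in the Mettl5 dataset. Scaled to other protein-coding exons, the median coverage ratio was 1.19 in clone #1 and 1.17 in clone #2. In the main setting it was 1.35 and 1.33. With either clone left out the median over clones was 1.33 to 1.35, against 1.36 for their mean. The count of members changed in both clones was 0 in every alternative run. The count of lower members was not run with unweighted means, which give no counts to test. The causes of these changes were not tested beyond the choice of positions itself. No paired analysis was possible because only the knockout group has more than 1 library. Of the 12 members with positions of 100 calls or more 9 were lower, and of all genes at that setting 73.7%. Depth limits the width of the intervals of members with few calls.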
